A study of Diospyros lotus with 24 samples.

Results

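The contigs described here are the 490 stretches of the bud transcriptome of the dioecious persimmon Diospyros lotus on which the father tree of a family carried more small RNA than the mother tree. They were chosen from 421126 contigs of a de novo assembly by having at least 50 small RNA counts over both parents and at least 4 times the CPM, a count corrected for the total of its library, in the father. Of 62222 contigs with at least 50 counts, 0.788% met the rule. The libraries used here came from mixed buds of trees of the cultivar Kunsenshi, at the early differentiation of flower primordia. The trees were the father, the mother and their KK progeny, here called sons (male trees) and daughters (female trees). Each parent gave 1 small RNA and 1 mRNA library from buds, and 8 sons and 9 daughters gave 1 mRNA library each. The labels name June 17 and July 4, 2013, as sampling dates and tie no library to either, so sex and date cannot be told apart if they coincide.

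Plant small RNAs are short regulatory RNAs cut from longer double-stranded or hairpin RNA. They guide the cleavage or reduced translation of matching mRNAs, or the methylation of matching DNA, and much of the small RNA of plants comes from repeats and transposons. Males of Diospyros lotus are XY. The study's title names a small RNA encoded by the Y chromosome as the determinant of sex, and the gene known for this role, OGI, acts on the homeodomain gene MeGI. The contigs carry no gene names and 0 of the 490 IDs matched a RefSeq table of 27971 persimmon genes, so neither gene was looked up and no contig is given a function.

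The father's small RNA library held 14168901 counts and the mother's 19315399. The mRNA libraries held 6840388 counts in the father and 6925001 in the mother, and 3527282 to 15314430 in the 17 progeny used. Son 5, whose library was nearly empty, was left out. Son 6 was the deepest progeny library and daughter 1 the shallowest. There is 1 library per tree, so comparisons between sons and daughters measure the spread between trees, and comparisons between the parents have no replicate. Intervals are 95% limits and cover counting error only, since each parent gave 1 library of each kind. The reads carried no molecular identifiers, so duplicate reads could not be told from separate molecules.

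The small RNA values chose the contigs and are given as a description. Together the 490 contigs held 228458 counts, 1.61% of the father's small RNA, and 41303 counts, 0.214% of the mother's. A few contigs dominated: the 5 of most counts held 37.0% of the father's counts on the set, and the 20 of most counts held 58.0%. The father had 38 to 38299 counts per contig with a median of 114, and the mother had 0 to 11545 with a median of 15. The father over mother ratio of CPM was 4 to 8 in 237 contigs, 8 to 16 in 109, 16 to 32 in 63 and at least 32 in 81, the last including 9 contigs with 0 counts in the mother. The median ratio over all 62222 contigs with at least 50 counts was 0.890, so the set lay in the upper tail of a distribution centred slightly below equality.

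**Figure D1:**
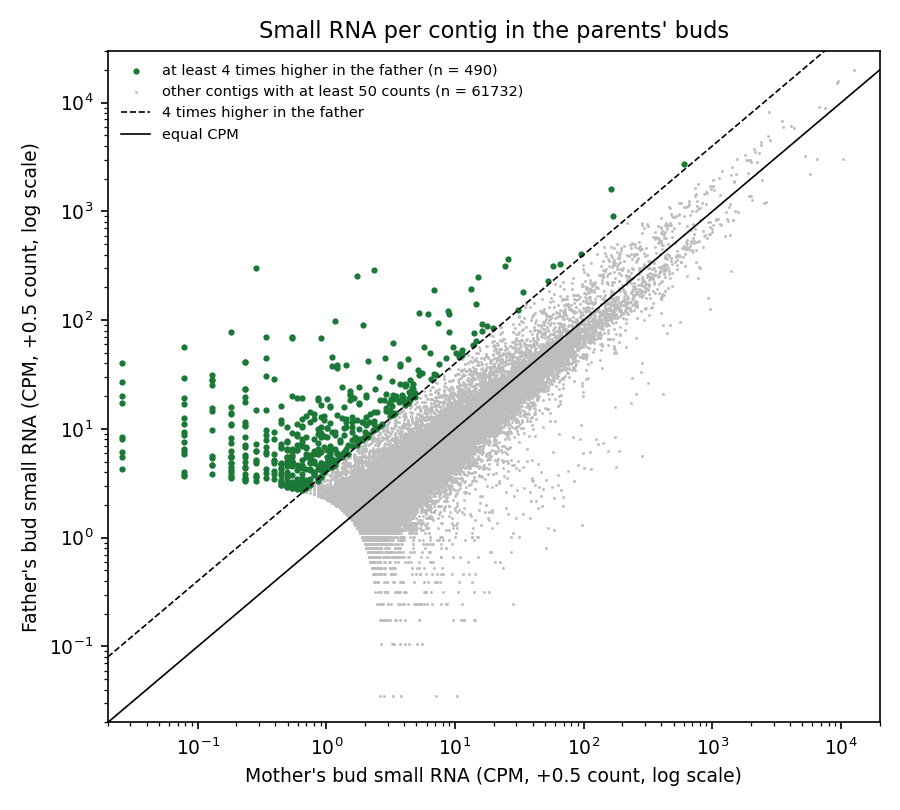
Small RNA per contig in the father (vertical axis) and the mother (horizontal axis), both as CPM with 0.5 counts added, on log scales. Each point is a contig with at least 50 counts over both libraries, green where the father has at least 4 times the mother's CPM (490 contigs). The green points run from 38299 counts in the father to columns of points at the left edge where the mother has 0 counts or a few.

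The 5 contigs with the most small RNA had ratios of 4.24 to 9.88. Contig229731DeNovoAssembly, 247 bases long, had 38299 counts in the father and 11545 in the mother. Its density was 10943 CPM per kb in the father and 2420 CPM per kb in the mother, the highest father density of the set. Contig165247DeNovoAssembly, 290 bases long, had 22969 counts in the father and 3170 in the mother, a ratio of 9.88 (9.52 to 10.3), and 5590 and 566 CPM per kb. Contig316973DeNovoAssembly, 322 bases long, had 12869 counts in the father and 3275 in the mother, a ratio of 5.36 (5.16 to 5.57), and 2821 and 527 CPM per kb. Contig266387DeNovoAssembly, 267 bases long, had 5711 counts in the father and 1837 in the mother, a ratio of 4.24 (4.02 to 4.47). Contig219052DeNovoAssembly, 895 bases long, had 4621 counts in the father and 1274 in the mother, a ratio of 4.94 (4.65 to 5.27). In these 5 contigs the mother's library still held over 1000 counts each.

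Other contigs were nearly empty of small RNA in the mother. Contig389572DeNovoAssembly, 1048 bases long, had 4309 counts in the father and 5 in the mother, a ratio of 1175 (503 to 3620). Contig10764DeNovoAssembly, 261 bases long, had 799 counts in the father and 1 in the mother, a ratio of 1089 (195 to 43075). Contig243084DeNovoAssembly had 413 counts in the father and 1 in the mother, Contig112697DeNovoAssembly 1105 and 3, and Contig350437DeNovoAssembly 273 and 1. Ratios built on 1 to 5 counts in the mother have wide intervals, and the lower limits of these 5 ran from 66.2 to 503. The 9 contigs with 0 counts in the mother had at least 60 counts each in the father. A 0 in the mother allows up to 3 counts, or 0.155 CPM. Set against that floor, small RNA was 27.3-fold higher in the father in the lowest of these contigs. It was 258-fold higher in the highest, Contig11701DeNovoAssembly of 460 bases. Folds against a floor leave out the counting error of the parent with counts, and the exact lower limit for Contig11701DeNovoAssembly was 209.

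At the limit of the rule the contigs were like those just outside it. Contig100090DeNovoAssembly (1739 counts in the father and 592 in the mother) and Contig87560DeNovoAssembly (47 and 16) both had a ratio of 4.00, and Contig140112DeNovoAssembly (65 and 22) had 4.03. Just outside, Contig202678DeNovoAssembly, Contig302691DeNovoAssembly and Contig102226DeNovoAssembly each had 44 counts in the father and 15 in the mother, a ratio of 3.999. At the count limit, 7 contigs of the set had exactly 50 counts, and 8 contigs with 49 counts met the ratio. The lower limit of the interval was at least 4 in 316 of the 490 contigs. It was above 1 in all of them, which the rule fixes in advance at these counts. Both values come from the counts that chose the contigs and cover counting error only.

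The 490 contigs were 200 to 6016 bases long with a median of 354, against a median of 403 in all contigs with at least 50 counts. Those under 300 bases made up 40.2% of the set and 35.2% of the contigs with at least 50 counts. Those over 2000 bases made up 8.98% and 16.4%. The share of contigs that met the rule was 0.898% under 300 bases, 0.851% from 300 to under 500, 0.996% from 500 to under 1000, 0.610% from 1000 to under 2000 and 0.431% at 2000 or more. The father's small RNA density had a median of 20.2 CPM per kb in the set and 7.64 in all contigs with at least 50 counts. The mother's density had a median of 1.76 in the set and 8.55 in all contigs with at least 50 counts. Within each length class the father's median density in the set was above, and the mother's below, that of contigs with at least 50 counts. The rule favours this order, since density is the CPM that chose the contigs divided by length. Density falls with length in part because every contig had to reach the same minimum count.

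**Figure D2:**
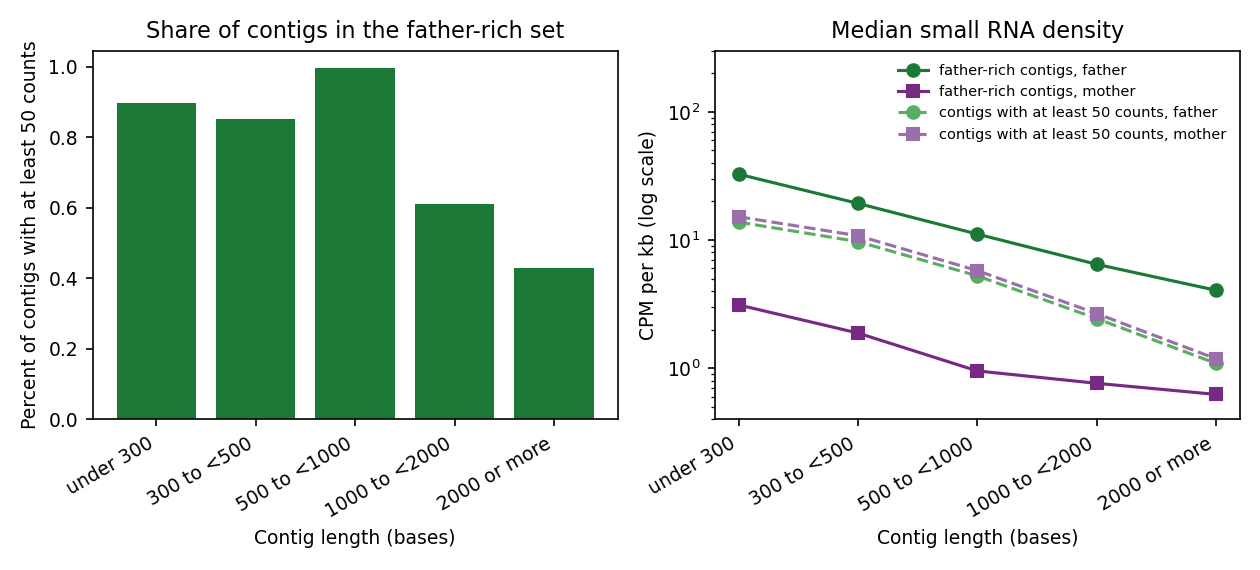
Left, the percent of contigs with at least 50 small RNA counts that belong to the father-rich set, by contig length in bases, from 0.996% at 500 to under 1000 bases to 0.431% at 2000 or more. Right, median small RNA density in CPM per kb (log scale) in the father (green circles) and the mother (purple squares), for the set (solid lines) and for all contigs with at least 50 counts (dashed lines). The solid green line lies above the dashed lines and the solid purple line below them in each length class, an order that the rule favours.

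The next question was whether a contig with more small RNA in the father also differed in mRNA between the parents, a measure the rule did not use. Higher mRNA in the father, by at least 4-fold, made up a larger share of the set than of all contigs, and higher mRNA in the mother a share near that of all contigs. Of the 490 contigs, 487 were in the mRNA table and 173 had at least 10 mRNA counts over both parents. In 17 of these (9.83%) the father had at least 4 times the mRNA CPM, where 2.41% of the 102755 contigs with at least 10 mRNA counts did, and 2.44% of those that also had at least 50 small RNA counts. In 9 (5.20%) the mother had at least 4 times as much, against 3.79% of the 102755 contigs and 3.88% of those with at least 50 small RNA counts. In the other 147 contigs the parents were within 4-fold. The median father over mother mRNA ratio was 0.937 in the set and 0.940 over all contigs. Across the 173 contigs the log2 small RNA and mRNA ratios of the parents, with 0.5 counts added, had a Pearson r of 0.0853 and a Spearman rho of -0.111. These are descriptions over contigs of the same 4 libraries.

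The share with higher mRNA in the father was largest at the highest small RNA ratios. Among contigs with a small RNA ratio of at least 8, 12 of 86 (14%) had at least 4 times the mRNA in the father and 7 (8.14%) at least 4 times in the mother. At a small RNA ratio of 4 to 8 these numbers were 5 and 2 of 87, or 5.75% and 2.30%. Among 20776 contigs whose small RNA was within 2-fold, they were 2.30% and 3.68%. The mirror set, with at least 4 times the small RNA in the mother, had the opposite balance: of its 122 contigs with at least 10 mRNA counts, 6 (4.92%) were at least 4 times higher in the father and 19 (15.6%) in the mother. No test was made of these shares, with 1 library per parent.

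**Figure D3:**
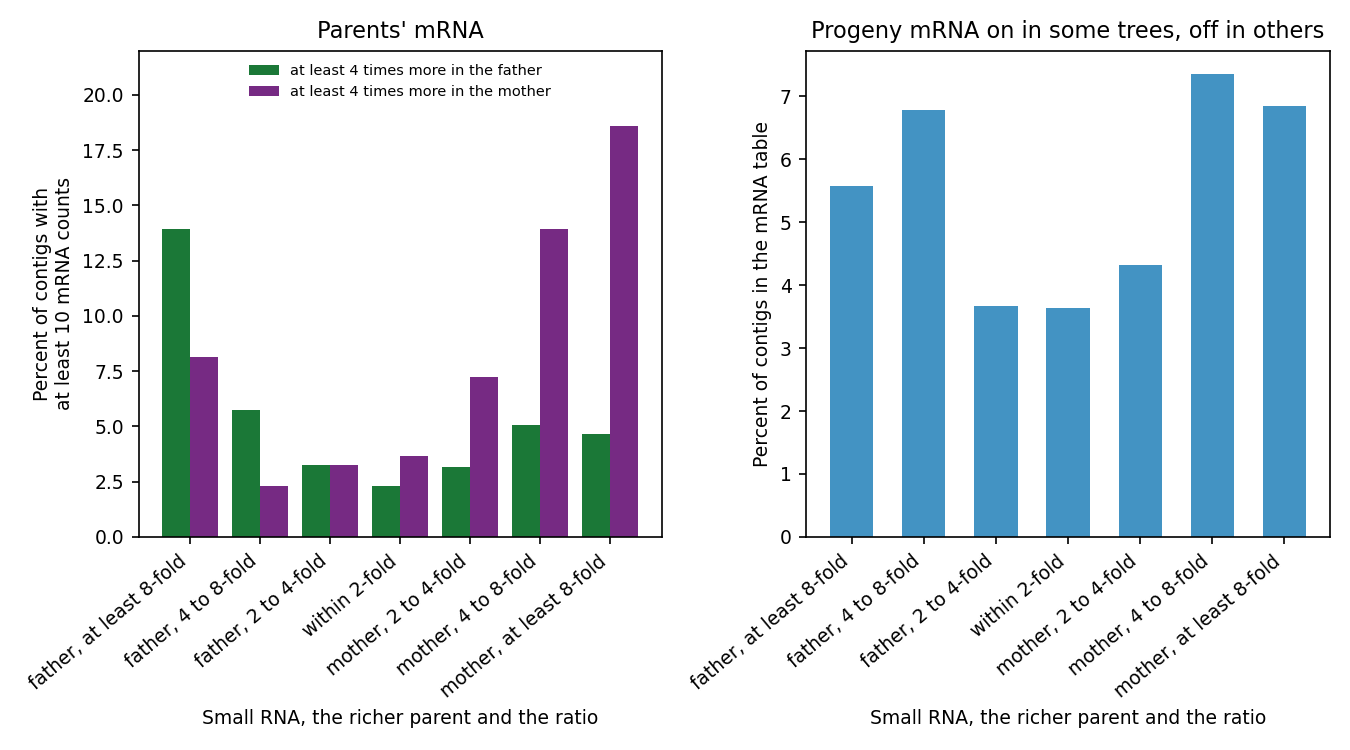
Contigs with at least 50 small RNA counts, in classes of the small RNA ratio between the parents from father-rich (left) to mother-rich (right). Left, the percent of contigs with at least 10 mRNA counts whose mRNA was at least 4 times higher in the father (green) or in the mother (purple). Right, the percent of contigs in the mRNA table whose mRNA was on in at least 3 progeny trees and off in at least 3 others. The green bar is highest at the father-rich end (14%), the purple bar at the mother-rich end (18.6%), and the blue bars are higher at both ends than in the middle (3.64%).

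In 10 of the 17 contigs with at least 4 times the mRNA in the father, the mother had 0 mRNA counts. Contig203676DeNovoAssembly, 1211 bases long, had 268 mRNA counts in the father and 0 in the mother. Against a floor of 3 counts (0.433 CPM) its mRNA was 90.4-fold higher in the father, and the exact lower limit was 73.0. Its small RNA counts were 70 in the father and 10 in the mother. Contig386265DeNovoAssembly, 968 bases long, had 116 mRNA counts in the father and 0 in the mother, and 586 and 4 small RNA counts. Its mRNA was 39.1-fold higher against that floor, with a lower limit of 31.3. Contig374338DeNovoAssembly, 210 bases long, had 113 mRNA counts in the father and 0 in the mother, and 86 and 0 small RNA counts. Its mRNA was 38.1-fold higher against that floor, with a lower limit of 30.5. In these 3 contigs the mother had 0 mRNA counts, and her small RNA ran from 0 to 10 counts.

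Other contigs had more small RNA but less mRNA in the father, of which 3 are described here. Contig389572DeNovoAssembly, with the highest small RNA ratio of the set, had 221 mRNA counts in the father and 728 in the mother, a ratio of 0.307 (0.263 to 0.358). All 17 progeny trees had its mRNA, at 41.5 ± 22.7 CPM (SD, n = 17). Contig321040DeNovoAssembly, 759 bases long, had 326 and 4 small RNA counts in the father and mother and 14 and 44 mRNA counts, an mRNA ratio of 0.322 (0.163 to 0.599). Contig185190DeNovoAssembly, 4584 bases long, had 89 and 20 small RNA counts in the father and mother and 0 and 92 mRNA counts. Its mRNA was 30.3-fold higher in the mother against a floor of 3 counts. The upper limit of its father over mother mRNA ratio was 0.0414. Of the 9 contigs with at least 4 times the mRNA in the mother, this one had the most mRNA counts, and the others had 9 to 26 in the mother.

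Much of the set had small RNA with little or no mRNA. Both parents had 0 mRNA counts on 164 of the 487 contigs (33.7%), near the 33.3% of all contigs with at least 50 small RNA counts. At least 1 progeny tree reached 5 mRNA counts in 238 contigs (48.9%), near the 50.0% of contigs with at least 50 small RNA counts and above the 37.0% of all contigs. In the other 249 no tree did, and 6 of these had 0 counts in every tree. Contig165247DeNovoAssembly had 22969 small RNA counts in the father and 3170 in the mother, yet 0 mRNA counts in either parent and 2 and 1 counts in daughters 5 and 8 as its whole progeny total. Contig10764DeNovoAssembly had 0 mRNA counts in either parent and 3 and 5 counts in daughters 2 and 6 alone. Of the 34 contigs with at least 1000 small RNA counts, 5 stayed under 5 mRNA counts in every tree and both parents, and 12 had at least 5 in all 17 progeny trees. Per the labels, the libraries were made from purified mRNA, so other transcripts were not measured.

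Other contigs carried abundant mRNA. Contig316973DeNovoAssembly had 3972 CPM in the father and 1341 CPM in the mother, a ratio of 2.96 (2.89 to 3.03). In the progeny it had 297 ± 207 CPM in sons (SD, n = 8) and 322 ± 129 CPM in daughters (SD, n = 9). Per length its progeny mean was 964 CPM per kb, the highest of the set. The progeny were below both parents: sons ran from 126 to 671 CPM and daughters from 191 to 517 CPM. Contig229173DeNovoAssembly, 268 bases long, had 107 CPM in the father and 24.7 CPM in the mother, a ratio of 4.35 (3.68 to 5.17). Sons ran from 58.4 to 214 CPM with a median of 159, and daughters from 22.9 to 195 CPM with a median of 129, so the sexes overlapped over most of their range. Contig209559DeNovoAssembly, 1743 bases long, had 107 CPM in the father and 122 CPM in the mother, and a mean of 128 ± 29.8 CPM in the progeny (SD, n = 17), although its small RNA counts were 271 in the father and 12 in the mother.

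Summed over the 487 contigs, mRNA took 6979 CPM in the father and 3999 CPM in the mother. Contig316973DeNovoAssembly alone made 56.9% of the father's sum and 33.5% of the mother's, and without it the sums were 3007 and 2658 CPM. The sums were 2345 ± 253 CPM in sons (SD, n = 8) and 2359 ± 233 CPM in daughters (SD, n = 9), and the sexes overlapped.

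Sons and daughters were compared to see whether contigs richer in the father's small RNA have mRNA that goes with sex. Among those abundant enough to test, none was called changed, which does not show that none differed. The count filter kept 121 of the 487 contigs, and 0 were higher and 0 lower in sons at an adjusted p under 0.05 (edgeR quasi-likelihood test, Benjamini-Hochberg adjustment over 62831 contigs). Over all tested contigs 0.0159% were called higher and 0.0318% lower in sons. An unadjusted p under 0.05 was found in 13 of the 121 contigs (10.7%) and in 7.08% of all contigs tested. DESeq2 and limma-voom also called 0 of the 121. The median log2 fold change, sons over daughters, was -0.03 in the set and 0.005 over all contigs tested. The contig of lowest p was Contig100495DeNovoAssembly, 2734 bases long, with 2.82 ± 1.04 CPM in sons (SD, n = 8) and 5.11 ± 1.75 CPM in daughters (SD, n = 9), or -0.85 ± 0.25 (SE) as log2 sons over daughters (adjusted p = 0.452 in edgeR). On the other side stood Contig204238DeNovoAssembly, 883 bases long, with 8.0 ± 6.44 CPM in sons and 3.35 ± 1.29 CPM in daughters, or 1.25 ± 0.42 (SE) on that scale (adjusted p = 0.537 in edgeR).

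Below that filter 2 contigs were counted in every son and in no daughter. They were singled out after their values were seen. Contig214180DeNovoAssembly, 745 bases long, had 6, 6, 2, 2, 6, 9, 8 and 7 mRNA counts in sons 1, 2, 3, 4, 6, 7, 8 and 9, 5 counts in the father, and 0 in the mother and in all 9 daughters. Its small RNA counts were 440 in the father and 2 in the mother. At 0.719 ± 0.361 CPM in sons (SD, n = 8) it was 11.5-fold higher than in daughters, taking a floor of 3 counts over all 9 of them (0.0624 CPM). Contig201712DeNovoAssembly, 797 bases long, had 2, 7, 1, 6, 34, 6, 6 and 4 mRNA counts in the same sons, 2 in the father, and 0 in the mother and in all 9 daughters. It averaged 0.811 ± 0.631 CPM in sons, 13-fold higher than that floor, and had 176 small RNA counts in the father and 15 in the mother. This pattern was shown by 2 of the 487 contigs (0.411%) and by 14 of all 417827 contigs with mRNA data (0.00335%). Of the 61527 contigs with at least 50 small RNA counts, 5 showed it (0.00813%). The reverse was shown by 0 of the 487 and 0 of all 417827. It was harder to reach, since it needed a count in each of 9 daughters. Daughter libraries held 3527282 to 6963244 counts and son libraries 5823321 to 15314430. In a fit without a count filter, which called 414 of 410876 contigs, these 2 were the only contigs of the set called, with adjusted p = 0.000697 and 4.18e-05 in edgeR.

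The remaining question was whether progeny mRNA was on in some trees and off in others. A tree was called on at 5 or more counts, and off at 0 counts where the mean CPM of the on trees predicted at least 5 counts in that library. Other trees were left undetermined. With at least 3 trees on and at least 3 off, 30 of the 487 contigs (6.16%) had such a pattern, where 2.32% of all 417827 contigs and 3.73% of the 61527 with at least 50 small RNA counts did. Of the 196 contigs on in at least 3 trees 15.3% had it, against 9.19% of such contigs with at least 50 small RNA counts and 8.48% of all such contigs. In the mirror set, with more small RNA in the mother, these shares were higher, at 7.13% of its contigs and 24.7% of those on in at least 3 trees. Of the rest, 89 contigs (18.3%) were on in all 17 trees, near the 18.2% of contigs with at least 50 small RNA counts and above the 11.9% of all contigs, and 119 had at least 5 counts in some tree without meeting either description. Trees differed in how many of the 30 contigs were on, from 2 in daughter 6 to 25 in son 6, the library with the most reads. With all libraries thinned to the smallest, 25 contigs (5.13%) met the rule, against 1.76% of all contigs.

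By the same rule for the parents, 11 of the 30 (36.7%) were on in the father and off in the mother. The like share was 469 of the 9712 on/off contigs of the series (4.83%). It was 155 of the 2295 on/off contigs with at least 50 small RNA counts (6.75%). Only 1 of the 30 was off in the father and on in the mother (3.33%), against 7.20% in the series and 8.45% of the 2295. In the mirror set, 1 of 39 on/off contigs was on in the father and off in the mother, and 12 were off in the father and on in the mother. Both parents were on for 2 of the 30 contigs (6.67%), against 26.8% in the series and 29.4% of the 2295. The other 16 of the 30 had a parent that was undetermined or both parents off. Among the 11 father-on contigs the on trees made up 18.8% to 72.7% of the trees with a call, with a median of 55.6%. Contigs with fewer than 3 trees on or fewer than 3 off could not enter, so the rule itself bounds these shares. In 10 of the 11, sons and daughters both had on trees, the exception being Contig214180DeNovoAssembly.

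**Figure D4:**
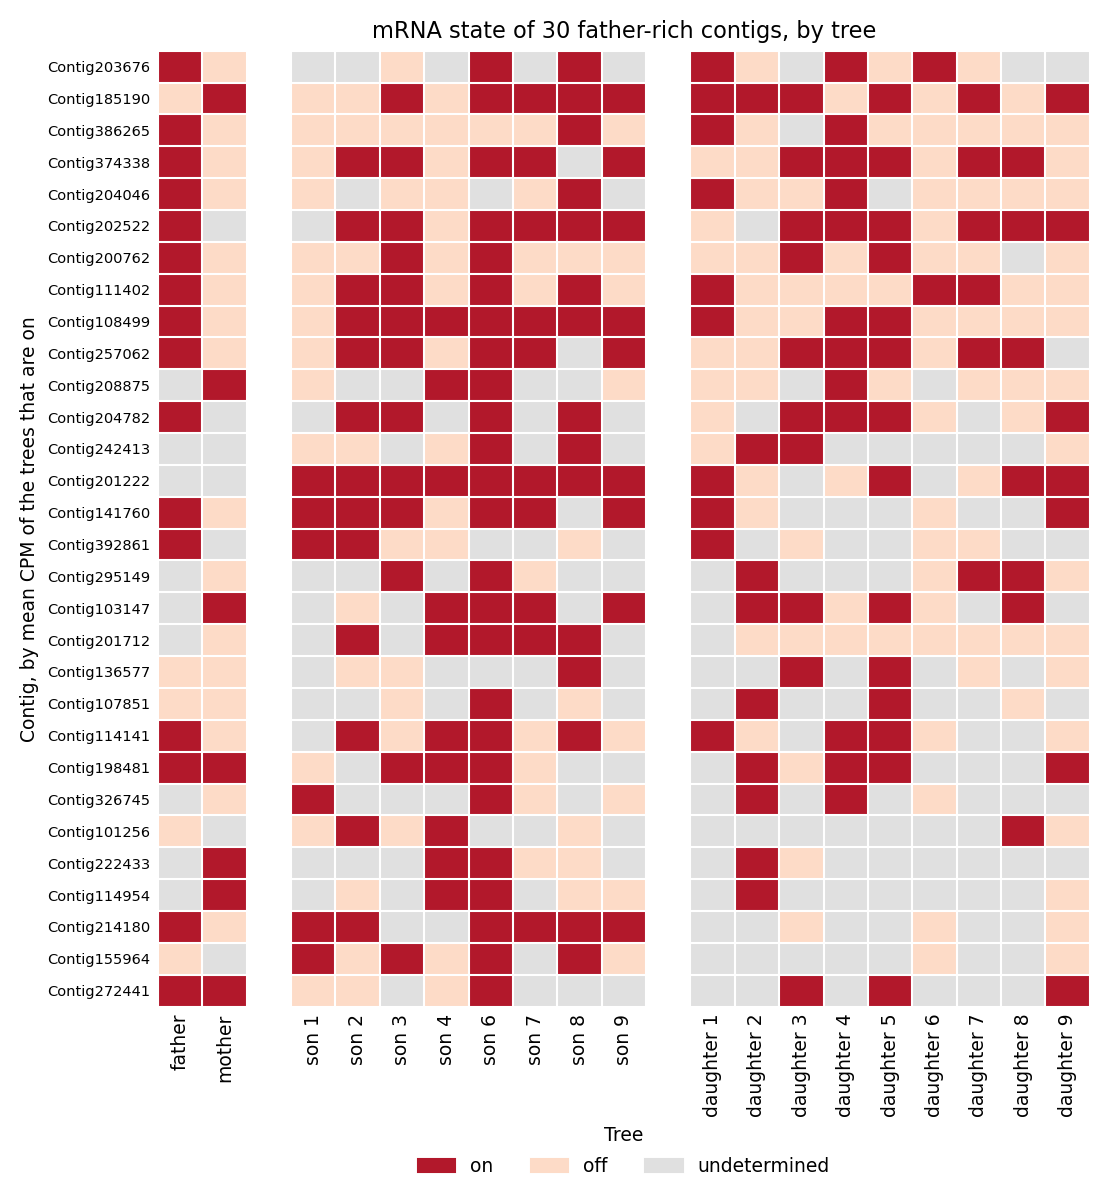
mRNA state of the 30 on/off contigs (rows, by the mean CPM of the on trees) in the father, the mother, the 8 sons and the 9 daughters (columns). Dark red is on, pale orange is off and grey is undetermined. The father column is red and the mother column pale in 11 rows, and red squares fall in both sons and daughters in most rows. Names are given without the ending DeNovoAssembly.

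Among the 10 on/off contigs of highest mean CPM in their on trees, the gap to the other trees was wide in some and narrow in others. It was narrow in Contig202522DeNovoAssembly, on from 5 counts with 1 count in the highest of the other trees, and in Contig257062DeNovoAssembly, on from 7 counts with 4 in the highest of the others. The on/off contigs below these 10 had on-tree means of 0.776 to 2.23 CPM, so many of their counts lay near the cut-off of 5. Some were graded, such as Contig107851DeNovoAssembly, with 18 counts in son 6 and 0 to 5 in every other tree. Contig374338DeNovoAssembly had 72 to 161 counts in sons 2, 3, 6, 7 and 9 and 53 to 77 in daughters 3, 4, 5, 7 and 8. It had 1 count in son 8 and 0 in the other 6 trees, so no tree lay between 1 and 53 counts. Contig111402DeNovoAssembly, 1199 bases long, had 17 to 52 counts in sons 2, 3, 6 and 8, 13 to 35 in daughters 1, 6 and 7, and 0 in the other 10 trees. Its mRNA counts were 38 in the father and 0 in the mother, and its small RNA counts 4074 and 45. Contig108499DeNovoAssembly, 1303 bases long, had 23 to 40 counts in 7 sons and 0 in son 1. Daughters 1, 4 and 5 had 25, 26 and 10 counts, and the other 6 daughters had 0. Its mRNA counts were 92 in the father and 0 in the mother, and its small RNA counts 3556 and 293. In all 3 contigs the mother's mRNA was at 0, while her small RNA ran from 0 counts in Contig374338DeNovoAssembly to 293 in Contig108499DeNovoAssembly.

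Contig185190DeNovoAssembly was the 1 contig of the 30 off in the father and on in the mother. It had 96 to 142 counts in sons 3, 6, 7, 8 and 9, 46 to 121 counts in daughters 1, 2, 3, 5, 7 and 9, and 0 counts in sons 1, 2 and 4 and daughters 4, 6 and 8. Its mRNA was thus on, as in the mother, in 11 of 17 progeny trees and off, as in the father, in 6. Its small RNA was 6.07 times higher in the father (3.70 to 10.4).

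**Figure D5:**
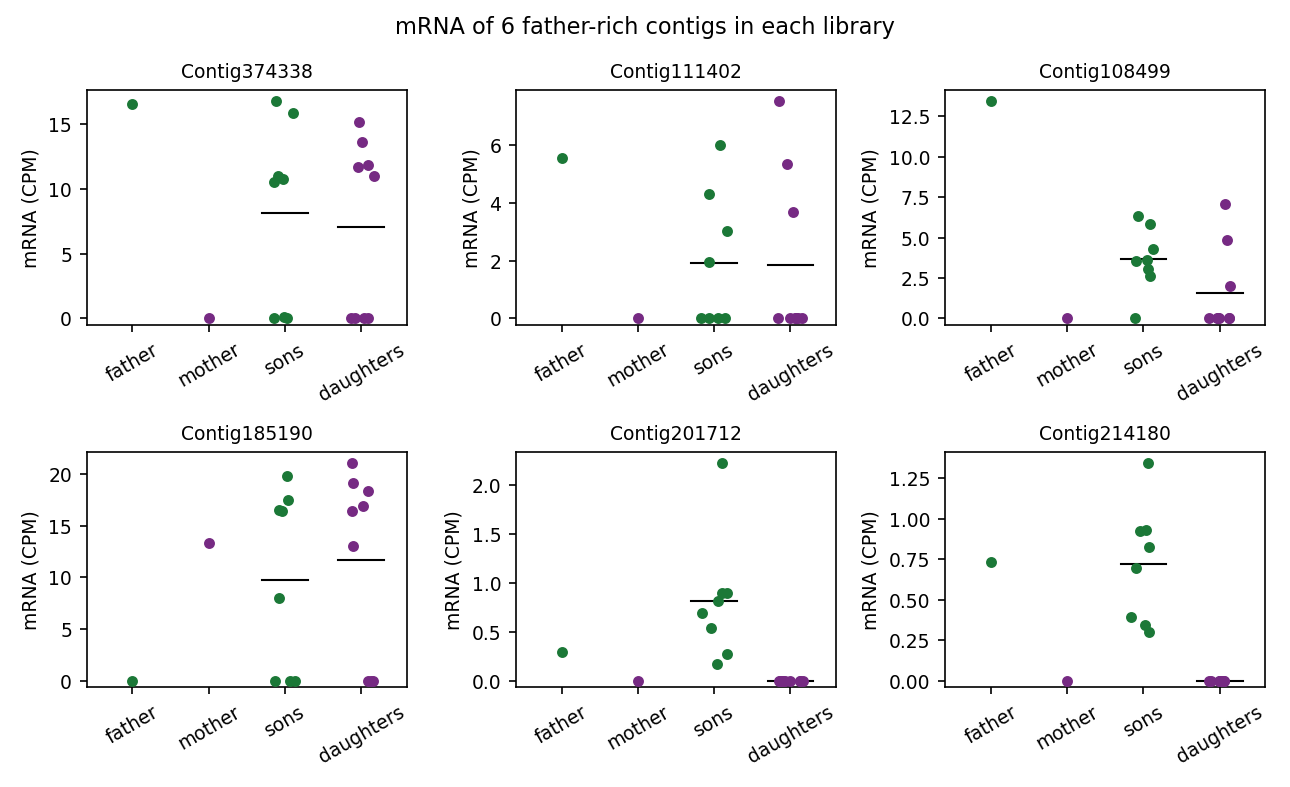
mRNA in CPM of 6 contigs in the father, the mother, the 8 sons and the 9 daughters. Each point is a library, green for male and purple for female trees, and the black lines are group means. In 3 upper panels the mother is at 0 and sons and daughters both split into trees at 0 and trees well above it. Contig185190 splits likewise with the father at 0, and in Contig201712 and Contig214180 all daughters are at 0. Names are given without the ending DeNovoAssembly.

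Some of the contigs were on in the same trees. Contig386265DeNovoAssembly had 120 counts in son 8, 57 in daughter 1, 67 in daughter 4, 2 in daughter 3 and 0 elsewhere. Contig204046DeNovoAssembly, 642 bases long, had 83 counts in son 8, 39 in daughter 1, 83 in daughter 4 and 0 to 4 elsewhere. The 12 trees called for both contigs had the same state in both. Contig204046DeNovoAssembly had 86 mRNA counts in the father and 0 in the mother, and 638 and 55 small RNA counts. Its small RNA ratio was 15.8 (12.0 to 21.2), and that of Contig386265DeNovoAssembly was 199.7 (77.6 to 735). Contig203676DeNovoAssembly was on in the same 3 trees, with 333, 81 and 59 counts, and also in son 6 with 53 and daughter 6 with 98, and had 0 to 2 counts in the others.

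Contig374338DeNovoAssembly and Contig257062DeNovoAssembly, 320 bases long, had the same state in all 15 trees called for both. Contig257062DeNovoAssembly had 7 to 49 counts in its 10 on trees and 0 to 4 in the rest, and 12 mRNA counts in the father and 0 in the mother. Contig202522DeNovoAssembly, 1294 bases long, matched Contig257062DeNovoAssembly in all 13 trees called for both, with 65 mRNA counts in the father and 1 in the mother, although it was also on in son 8 with 6 counts and daughter 9 with 5. Of the 103 pairs among the 30 contigs with at least 10 trees called for both, these 3 pairs (2.91%) had no mismatch, against 0.638% of 3649278 such pairs among all 9712 on/off contigs. Among all on/off contigs, 29 matched Contig374338DeNovoAssembly in every tree called for both, 1 of them in the set, and 40 matched Contig200762DeNovoAssembly, 0 of them in the set. That contig, 1022 bases long, had 43 and 52 counts in sons 3 and 6, 26 and 19 in daughters 3 and 5, and 0 or 1 elsewhere, with 30 mRNA counts in the father and 0 in the mother. The files do not say which contigs are alleles, copies or fragments of 1 gene, and reads may be shared between near-identical contigs.

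The spread of mRNA among the 17 progeny trees was set beside that of contigs of like level. At a mean of at least 20 CPM the median coefficient of variation was 0.221 over 30 contigs of the set, 0.169 over all contigs with at least 50 small RNA counts and 0.160 over all 13446 contigs. In that band 11 of the 30 were above the value of 0.304 that the most variable 10% of contigs exceed. At 5 to 20 CPM the medians were 0.295 over 37 contigs and 0.247 over all, and at 1 to 5 CPM 0.473 over 80 contigs and 0.421 over all. In these 2 bands the medians of contigs with at least 50 small RNA counts, 0.297 and 0.468, were close to those of the set. Of the 37 contigs 8, and of the 80 contigs 20, were among the most variable 10% of all contigs in their band. At 0.5 to 1 CPM the medians were 0.681 over 29 contigs of the set, 0.695 over contigs with at least 50 small RNA counts and 0.662 over all, and 3 of the 29 were among the most variable 10%. By its median the set was thus higher at 20 CPM or more, and near the contigs with at least 50 small RNA counts below that. In each band from 1 CPM up, more than 10% of the set was among the most variable 10% of all contigs. The like share of contigs with at least 50 small RNA counts was not computed. No test was made of these medians or shares.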

How the data were processed

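Small RNA and mRNA were each deposited as a table of read counts, in whole numbers, on contigs assembled de novo, and the small RNA table also gives contig lengths in bases. BWA, R 3.0.1 and DESeq 1.14 are named in the submitters' processing notes. How reads were counted, with several matches or by strand, is not given in the sources used here, so contigs of like sequence may have gained or lost counts.

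CPM used column totals. Ratio intervals are exact conditional limits. The test of sons against daughters was the robust quasi-likelihood fit of edgeR 4.0.16 in R 4.3.3, after filterByExpr grouped by sex and with TMM scaling, at an adjusted p under 0.05. The SE is the log2 fold change divided by the square root of F. DESeq2 1.42.0 and limma-voom (limma 3.58.1) were alternatives. Methods were tested on simulated data. The 490 contigs, the rules and the lists were chosen with earlier results of these data known. Named contigs were those of most small RNA, highest ratio or density, at the limits, on/off with the highest level, highest mRNA, extreme parental mRNA ratio, or lowest p. Replicate numbers only name trees. The 2 flower small RNA libraries were not analysed here. No sequences of the contigs were used here.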

Additional observations from a re-analysis of the deposited data

Results flagged for a closer look

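Values of the named contigs and of the summed mRNA were compared within sons and within daughters, and a library was picked out where its gap to the nearest other tree was large for the range of its group. Of 55 groups examined 7 had such a value. The nominal rate of the cut-off, about 1 in 20, is not the chance rate here. Some of the named contigs were picked for being on in some trees and off in others, and some were on in the same trees. The causes were not tested.

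Son 8 had 4 of them. It had 38.4 CPM for Contig203676DeNovoAssembly, against 0 to 3.46 CPM in the other sons, 13.9 CPM for Contig386265DeNovoAssembly, against 0 CPM, and 9.58 CPM for Contig204046DeNovoAssembly, against 0 to 0.261 CPM. It also had 215 CPM for Contig209559DeNovoAssembly, against 107 to 137 CPM. The first 3 contigs were also on in daughters 1 and 4. Son 3 had 7.38 CPM for Contig200762DeNovoAssembly, against 0 to 3.40 CPM. Son 6 had 0.196 CPM for Contig87560DeNovoAssembly (3 counts), against 0 CPM, and daughter 9 had 1.15 CPM for Contig140112DeNovoAssembly (8 counts), against 0 to 0.484 CPM in the other daughters.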

How the results depend on the processing

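The 490 contigs became 1143 with at least 20 counts, 302 with at least 100, 836 at a ratio of 3, 253 at a ratio of 8 and 316 where the lower limit of the interval had to reach 4, and 511 to 589 with TMM factors or scaling by the median ratio. The 30 on/off contigs became 14 with on from 10 counts, 46 with off up to 1 count, 49 and 11 with at least 2 or 4 trees in each state, 12 with at least 10 expected counts, 14 among contigs with a small RNA ratio of at least 8 and 18 among those with at least 100 small RNA counts. Thinned counts gave 25, and leaving out a progeny library gave 23 to 29. Both of these were added after seeing the data. With on from 10 counts 2.87% of the set met the rule, against 0.547% of all contigs, and with at least 10 expected counts 2.46%, against 0.393%. With at least 50 mRNA counts 7 contigs had 4 times the mRNA in the father and 1 in the mother, and at an mRNA ratio of 2 these were 26 and 25. The like shares over all contigs were not computed at these mRNA settings, so these counts have no background beside them.

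The 0 contigs called changed between sons and daughters became 2 without a filter, both with under 50 counts in each son. The number stayed 0 in the 7 other alternatives and with any library left out (0 to 0). The median log2 fold change of the set was -0.054 to -0.0008 over these alternatives and -0.066 to -0.0045 with a library left out. The 2 contigs counted in every son and no daughter became 1 with at least 2 counts in each son and 0 with at least 3 counts in 7 sons, settings added after seeing the data. No paired analysis was possible because the numbers given to trees pair no son with a daughter. Depth limits off calls to contigs with about 5 expected counts per library.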
